A study of Sus scrofa with 6 samples.

Results

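The aryl hydrocarbon receptor AHR, its dimer partner ARNT and 4 of their target genes, CYP1A1, CYP1A2, TIPARP and NQO1, were followed in newborn piglet liver. These 6 genes were taken by name from 26733 genes, of which 11804 carry a symbol, and each matched a single row. Livers came from Landrace x Yorkshire piglets whose mothers ate tryptophan on different daily schedules. In the High-Low group the sows' morning meal held 0.39% tryptophan and the afternoon meal 0.13%, while in the 2xTrp group both meals held 0.26%. Each group had 3 RNA-seq libraries of total RNA (High-Low 1 to 3 and 2xTrp 1 to 3). The labels name no litter or animal for a library, so the p-values below cover spread among the samples, part of which may be technical.

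AHR is a transcription factor of the cytosol that is held by chaperones until it binds a ligand, among them dioxins, plant indoles and tryptophan products such as kynurenine. The bound receptor enters the nucleus, pairs with ARNT and switches on genes of foreign compound metabolism. In liver, CYP1A1 and CYP1A2 are its best known targets, and CYP1A2 is in adults a P450 of the hepatocytes around the central vein.

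Values carry no unit and were taken to be FPKM, which are scaled to transcript length and library size. On that reading, levels can be compared between genes. Read depth is unknown, and FPKM totals ran from 956426 to 1230288 per library. Hepatocyte markers were high in every library, with a sum over 11 genes of 52184 to 80640 FPKM in High-Low and 58083 to 74684 FPKM in 2xTrp. One of them, AHSG, is listed at 0 throughout. In a principal component analysis High-Low 1 and High-Low 2 stood apart, at 46.5 and -38.6 on the first component (36.1% of the variance). High-Low 3 stood at 18.4, and the 2xTrp libraries at -23.4, -2.49 and -0.36. On the second component (21.0% of the variance) High-Low 1 to 3 stood at 8.02, 23.3 and -14.1. There 2xTrp 1 to 3 stood at -35.9, 23.0 and -4.3. Differences in bulk tissue cannot tell fewer cells of a type from less RNA per cell.

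CYP1A1, AHR and CYP1A2 split the 6 libraries in the same way, and that split crossed the maternal diets. High-Low 1, High-Low 2 and 2xTrp 2 were the high libraries for all 3 genes, and High-Low 3, 2xTrp 3 and 2xTrp 1 followed in that order. No member differed between the diets past the spread of the libraries.

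AHR itself was the lowest of the 6 genes on average. It had 1.02, 0.720 and 0.597 FPKM in High-Low 1 to 3, against 0.270, 0.974 and 0.455 FPKM in 2xTrp 1 to 3. Only High-Low 1 exceeded 1 FPKM, 2xTrp 2 came next, and the groups overlapped. Among genes with any signal, AHR lay between the 17.5th and 32.7th percentile of a library. Its means were 0.778 ± 0.215 FPKM in High-Low and 0.566 ± 0.365 FPKM in 2xTrp (SD, n = 3 each). AHR was below the filter on low values (1 FPKM in 3 libraries) and is not among the 10901 genes tested. Its difference on log2(FPKM + 1), High-Low minus 2xTrp, was 0.20. An exact two-sided permutation test gave p = 0.4, where 0.1 is the smallest value that 3 libraries against 3 allow. Without the filter, limma gave AHR a 95% interval from -0.30 to 0.71.

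CYP1A1, the P450 most strongly induced by AHR ligands in many tissues, had 4.72, 6.08 and 1.16 FPKM in High-Low 1 to 3. In 2xTrp 1 to 3 it had 0.330, 4.76 and 0.710 FPKM. High-Low 2, 2xTrp 2 and High-Low 1 were thus well above the other libraries, and each diet had libraries on both sides. The highest CYP1A1 value was 18.4 times the lowest, and its SD over the 6 libraries on log2(FPKM + 1) was larger than that of 97.8% of the genes tested. The gene lay at the 19.8th percentile of its lowest library and at the 64.1st of its highest. The means were 3.99 ± 2.54 FPKM in High-Low and 1.93 ± 2.45 FPKM in 2xTrp (SD, n = 3 each). The log2 difference of 0.91 (SE 0.65, 95% interval -0.60 to 2.43) did not pass the test (limma, adjusted p = 0.998).

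CYP1A2, which metabolises caffeine and aromatic amines, had 17.1, 4.99 and 2.53 FPKM in High-Low 1 to 3. It had 1.69, 5.52 and 2.45 FPKM in 2xTrp 1 to 3. High-Low 1 was far above the rest, and 2xTrp 2 exceeded the other High-Low libraries. Its highest value was 10.1 times its lowest, with an SD larger than that of 97.4% of the genes tested. The means of 8.20 ± 7.80 FPKM in High-Low and 3.22 ± 2.03 FPKM in 2xTrp (SD, n = 3 each) differed by 0.89 on the log2 scale. The interval ran from -0.55 to 2.32 (limma, adjusted p = 0.998), and without High-Low 1 the difference was 0.23.

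The balance of the CYP1A enzymes also varied. CYP1A1 had 0.276, 1.22 and 0.46 times the FPKM of CYP1A2 in High-Low 1 to 3, and 0.195, 0.862 and 0.290 times in 2xTrp 1 to 3. CYP1A2 was therefore the higher of the pair in every library but High-Low 2. Both were far below CYP2E1 (chosen after its values were seen), the ethanol-metabolising P450 of the same liver zone, which had 580 to 921 FPKM in High-Low and 284 to 920 FPKM in 2xTrp. CYP2E1 exceeded CYP1A2 by 53.9 to 276 times in High-Low and by 167 to 253 times in 2xTrp. CYP1A1 and CYP1A2 are paralogs, and the sources used here do not say how reads matching both were counted, so the split between them is uncertain.

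**Figure D1:**
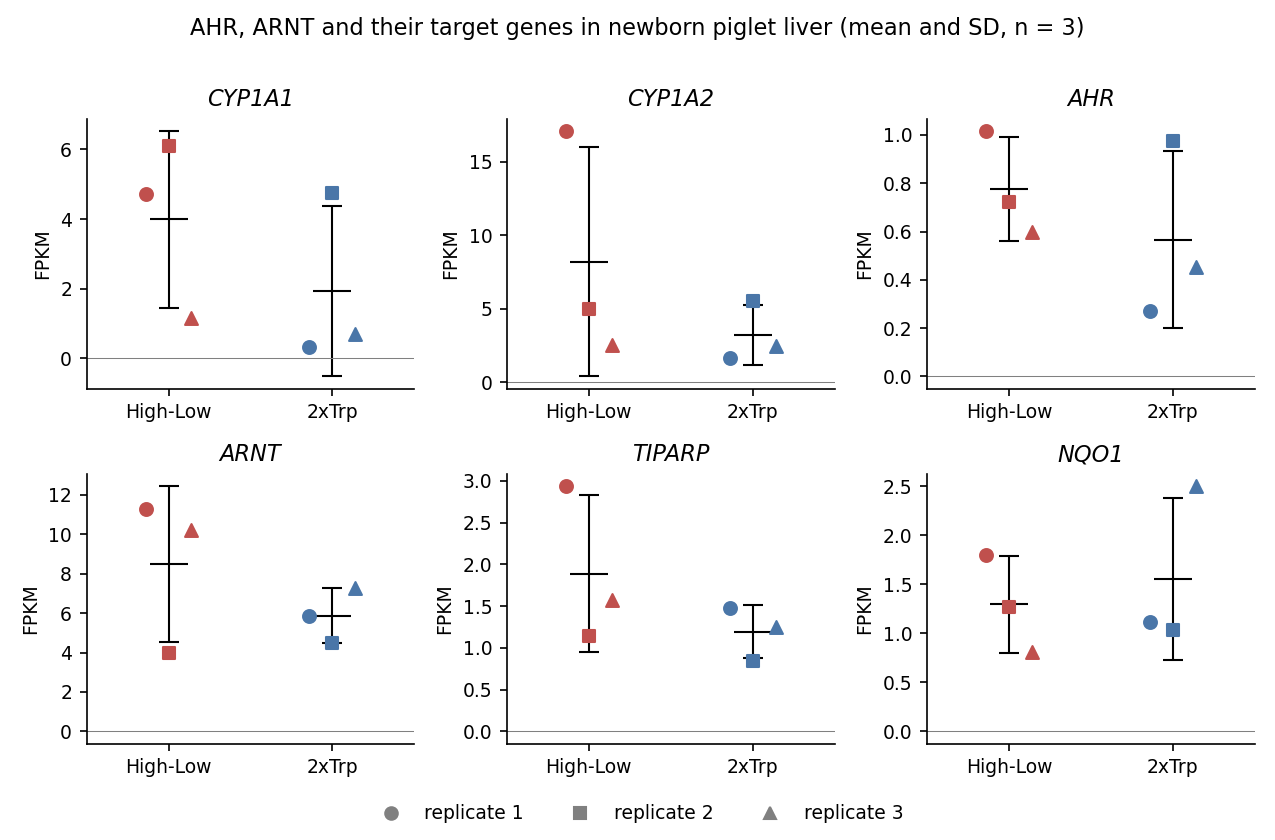
FPKM of each gene (vertical axes from 0 or below) in the 3 High-Low libraries (red) and the 3 2xTrp libraries (blue), with marker shapes for the replicate number and bars for the mean and SD (n = 3). The groups overlap in all 6 panels, and CYP1A1, CYP1A2 and AHR are high in the same High-Low 1, High-Low 2 and 2xTrp 2 libraries.

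CYP1A1 and CYP1A2 lie back to back on chromosome 7 of the susScr3 assembly. CYP1A2 occupies 63467511 to 63473453 on the minus strand and CYP1A1 63491454 to 63497651 on the plus strand, with 18000 bases and 0 listed features between them. The nearest named genes outside the pair varied little. CSK, a kinase that restrains SRC family kinases, had 19.3 to 26.5 FPKM in High-Low and 23.9 to 27.2 FPKM in 2xTrp. EDC3, a factor of mRNA decapping, had 5.59 to 6.57 FPKM in High-Low and 5.45 to 6.19 FPKM in 2xTrp. The highest value was 1.41 times the lowest for CSK and 1.21 times for EDC3, so the spread of the CYP1A pair was not seen in the genes beside it.

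**Figure D2:**
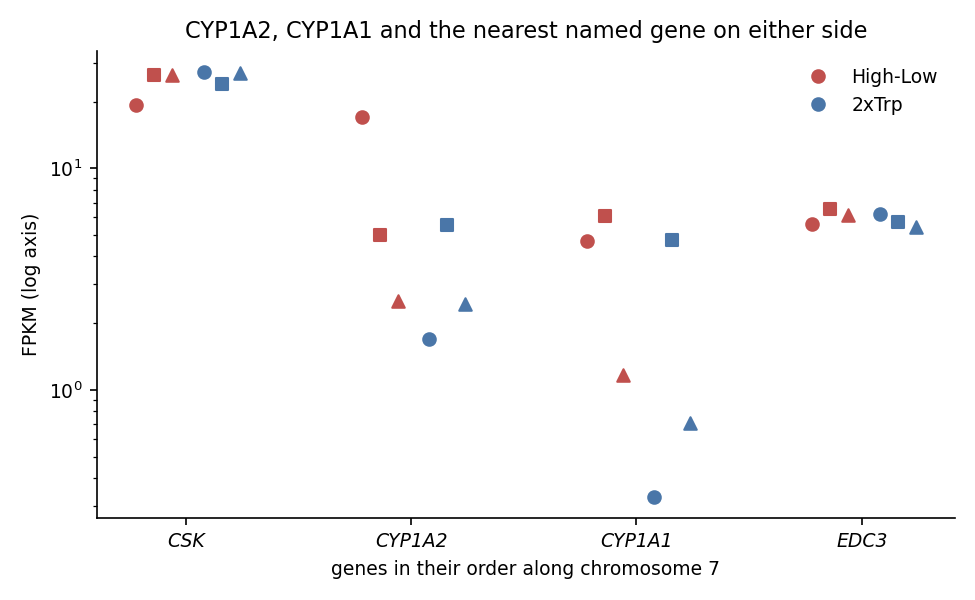
FPKM on a log axis for CSK, CYP1A2, CYP1A1 and EDC3 in their order along chromosome 7, one point per library, with the High-Low libraries (red) left of the 2xTrp libraries (blue) and marker shapes for replicates 1 (circle), 2 (square) and 3 (triangle). CYP1A2 and CYP1A1 spread over 10.1-fold and 18.4-fold, the flanking genes over 1.41-fold and 1.21-fold.

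ARNT and TIPARP followed another order of the libraries. ARNT (chromosome 4, 107586820 to 107638503), which also pairs with hypoxia-inducible factors, had 11.3, 3.95 and 10.2 FPKM in High-Low 1 to 3. It had 5.86, 4.47 and 7.26 FPKM in 2xTrp 1 to 3. High-Low thus held both the highest values of ARNT and its lowest. The means were 8.49 ± 3.97 FPKM in High-Low and 5.86 ± 1.40 FPKM in 2xTrp (SD, n = 3 each), with a log2 difference of 0.38 (95% interval -0.50 to 1.26, limma adjusted p = 0.998). Without High-Low 2 the difference was 0.80 (limma, adjusted p = 0.342), and without High-Low 1 it was 0.14.

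TIPARP, an ADP-ribosyltransferase that is induced by AHR and restrains it, lies on chromosome 13 at 104603430 to 104630494. It had 2.94, 1.14 and 1.58 FPKM in High-Low 1 to 3 and 1.48, 0.846 and 1.26 FPKM in 2xTrp 1 to 3. High-Low 1 was the highest library and High-Low 2 the second lowest. The means of 1.89 ± 0.938 FPKM in High-Low and 1.19 ± 0.319 FPKM in 2xTrp (SD, n = 3 each) differed by 0.36 on the log2 scale (95% interval -0.29 to 1.01, limma adjusted p = 0.998). Without High-Low 1 that difference was 0.11.

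NQO1, a quinone reductase driven by both AHR and the oxidative stress factor NFE2L2, lies on chromosome 6 at 16238853 to 16248810. It had 1.80, 1.27 and 0.814 FPKM in High-Low 1 to 3 and 1.12, 1.04 and 2.5 FPKM in 2xTrp 1 to 3. The highest library was 2xTrp 3, which was among the low ones for both CYP1A genes. NQO1 averaged 1.30 ± 0.495 FPKM in High-Low and 1.55 ± 0.825 FPKM in 2xTrp (SD, n = 3 each). It was the 1 member with a negative log2 difference, -0.13 (95% interval -0.81 to 0.55, limma adjusted p = 0.998), and that turned to 0.03 without High-Low 3 and to 0.12 without 2xTrp 3.

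Of the 5 members tested, 0 were called in limma at an adjusted p under 0.05, and 0 had an unadjusted p under 0.05. Over all 10901 genes tested 0.00917% were called and 3.16% had an unadjusted p under 0.05. The groups overlapped for all 6 members, while they did not overlap for 7.18% of the genes tested. Difference by difference, 5 of the 6 members had a positive value and 1 a negative one, and the median over all genes tested was -0.004. High-Low 1 held the highest value of 4 of the 6 members (CYP1A2, AHR, ARNT and TIPARP). It held the highest value of 23.6% of the genes tested. High-Low 2 was highest for CYP1A1 and 2xTrp 3 for NQO1.

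**Figure D3:**
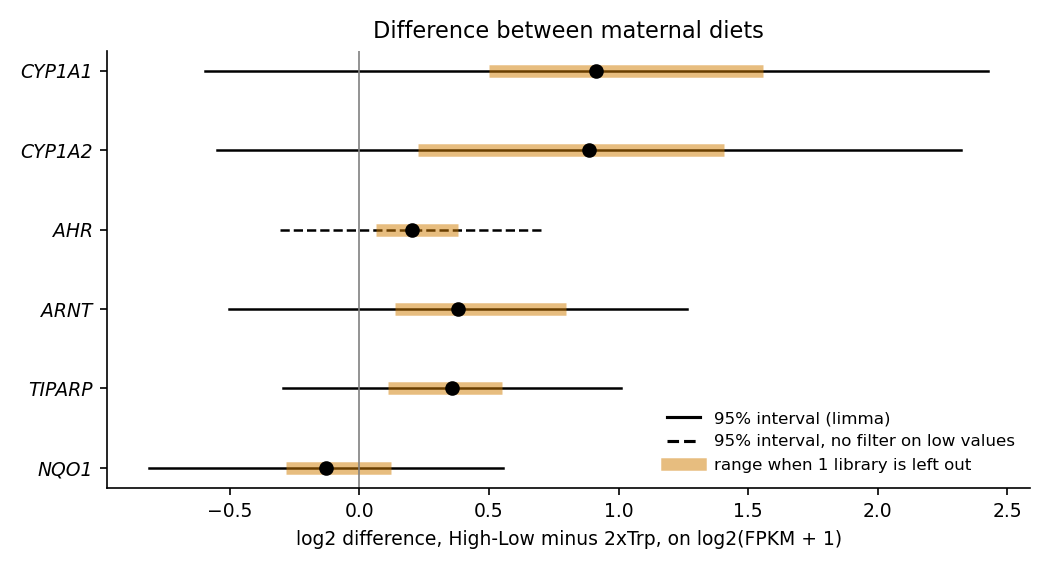
Log2 difference of each gene, High-Low minus 2xTrp, on log2(FPKM + 1) (points), with limma's 95% interval (black lines, dashed for AHR, which was fitted without the filter on low values) and the range when any 1 library is left out (orange). All intervals include 0, and the range for NQO1 reaches both sides of it.

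Whether the genes moved together was read from their correlations over the 6 libraries, on log2(FPKM + 1), for all 15 pairs. AHR correlated with CYP1A1 at r = 0.89 (exact permutation p = 0.0208, two-sided) and Spearman's rho = 0.77 (exact permutation p = 0.103). AHR correlated with CYP1A2 at r = 0.87 (exact permutation p = 0.0194). The library order of AHR and CYP1A2 was identical, with rho = 1 (exact permutation p = 0.00278, the smallest that 6 libraries allow). The CYP1A genes correlated with each other at r = 0.78 (exact permutation p = 0.0542) and rho = 0.77 (exact permutation p = 0.103).

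After Benjamini-Hochberg adjustment over the 15 pairs, 0 pairs passed by Pearson's r, with adjusted p = 0.111 as the smallest in these exact permutation tests. By Spearman's rho 1 pair passed, AHR with CYP1A2 (adjusted p = 0.0417, exact permutation). That call was lost when libraries were scaled to the same FPKM total, where rho was 0.94 (adjusted p = 0.25, exact permutation). It was also lost with quantile normalization, where rho was 0.89 (adjusted p = 0.438, exact permutation). After subtracting each group's mean, r over the 6 libraries was 0.86 for AHR with CYP1A1, 0.83 for AHR with CYP1A2 and 0.72 for CYP1A1 with CYP1A2. These values pool both diets and are a description without a test. Without the pair of libraries farthest from the median of the first gene, r was 0.65 for CYP1A1 with AHR (without 2xTrp 1 and 2xTrp 3) and 0.90 for CYP1A2 with AHR (without 2xTrp 1 and High-Low 1). For CYP1A1 with CYP1A2 it was 0.59 (without 2xTrp 1 and 2xTrp 3).

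Hepatocyte markers took a similar order. Their mean log2 value relative to all libraries was 0.30, 0.12 and -0.25 in High-Low 1 to 3 and -0.21, 0.10 and -0.07 in 2xTrp 1 to 3. The libraries above the mean were thus the same High-Low 1, High-Low 2 and 2xTrp 2. Expressed relative to these markers, r was 0.41 for CYP1A1 with AHR, 0.23 for CYP1A2 with AHR and 0.68 for CYP1A1 with CYP1A2. Before that step, the SD over the libraries on log2(FPKM + 1) was 0.26 for AHR, 1.05 for CYP1A1 and 0.99 for CYP1A2. High-Low 1, High-Low 2 and 2xTrp 2 were also the libraries with positive scores on the second principal component of all genes tested. The part of hepatocyte content or of that component in these correlations was not tested.

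ARNT correlated with TIPARP at r = 0.82 (exact permutation p = 0.0222, adjusted p = 0.111) and rho = 0.89 (exact permutation p = 0.0333, adjusted p = 0.25). The r was 0.80 without High-Low 1 and High-Low 2, the libraries farthest from the median of ARNT, and 0.78 after subtracting the group means. High-Low 1 and High-Low 3 were highest for both genes, and they also had the highest scores on the first principal component. The part of that component in the correlation was not tested.

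The targets of AHR did not all move together. Among the pairs of CYP1A1, CYP1A2, TIPARP and NQO1, r was 0.03 for CYP1A1 with TIPARP, 0.58 for CYP1A2 with TIPARP and -0.07 for CYP1A1 with NQO1. It was 0.23 for CYP1A2 with NQO1 and 0.26 for TIPARP with NQO1 (adjusted p from 0.721 to 0.965 in the exact permutation tests). The r of CYP1A2 with TIPARP rested on High-Low 1, without which it was -0.85. ARNT, although it is the partner of AHR, had r = 0.07 with AHR, -0.27 with CYP1A1 and 0.27 with CYP1A2 (adjusted p = 0.965 each, exact permutation).

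**Figure D4:**
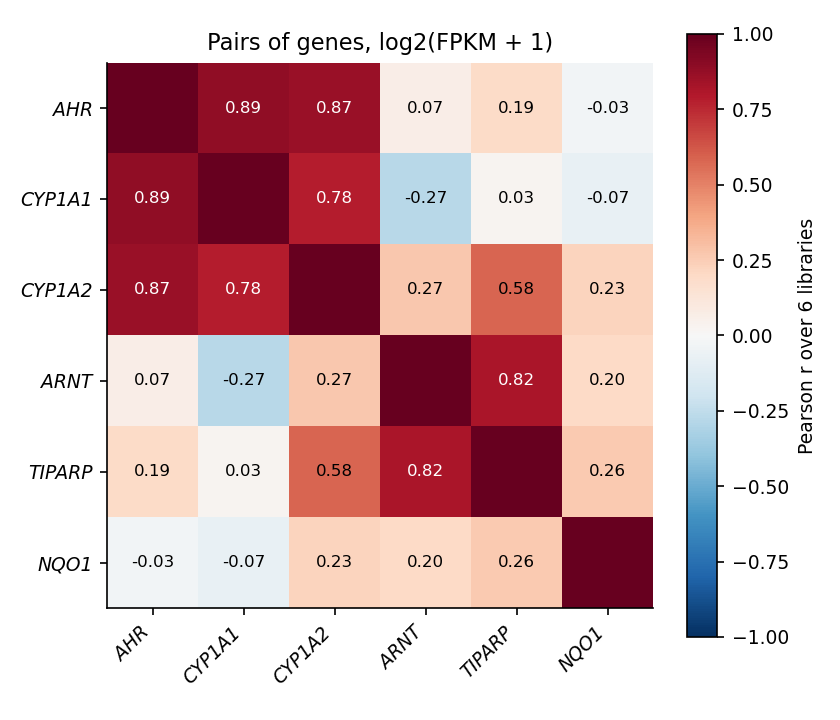
Pearson's r between each pair of genes over the 6 libraries, on log2(FPKM + 1), in colour from -1 (blue) to 1 (red). AHR, CYP1A1 and CYP1A2 form one block with r from 0.78 to 0.89 and ARNT with TIPARP another at 0.82, while NQO1 stays between -0.07 and 0.26 with all others.

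**Figure D5:**
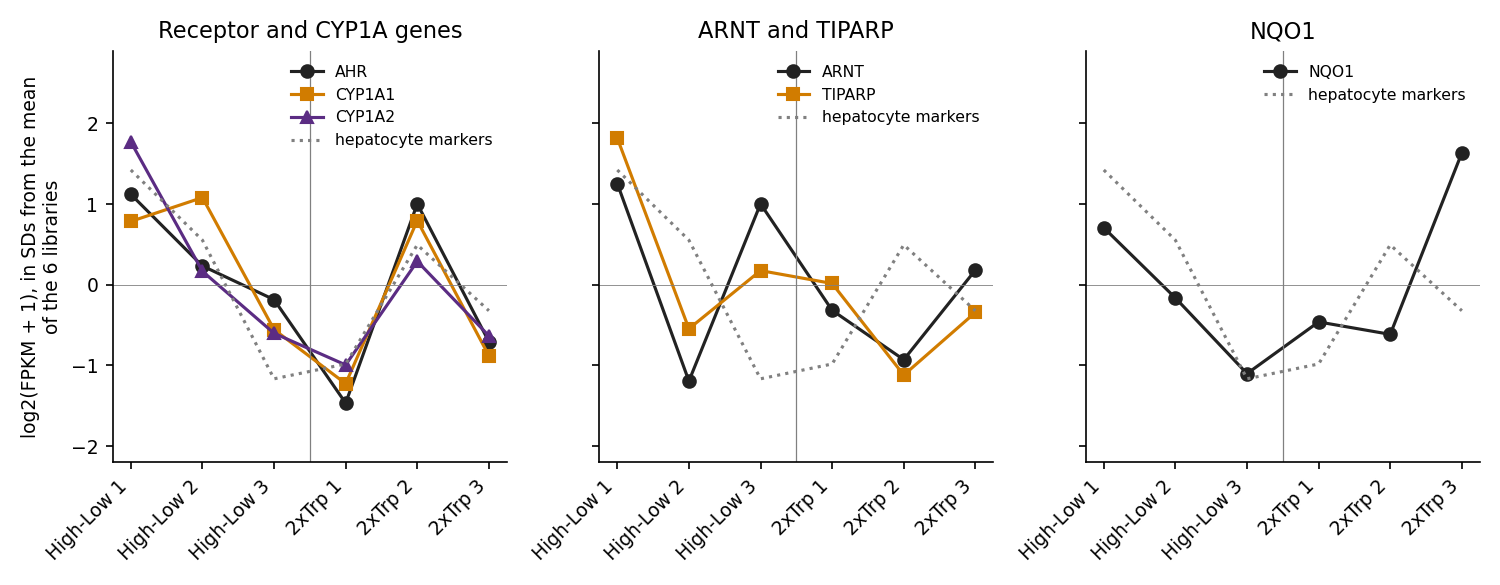
Log2(FPKM + 1) of each gene in SDs from its mean over the 6 libraries (vertical axis), for the High-Low libraries left of the line and the 2xTrp libraries right of it, with the mean of the hepatocyte markers dotted. Lines only join the libraries. AHR, CYP1A1 and CYP1A2 peak in High-Low 1 or High-Low 2 and again in 2xTrp 2, where ARNT and TIPARP are low.

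Genes with the most similar profile were taken from 6532 tested genes with a symbol, by Pearson's r over the 6 libraries, as a description. For CYP1A1 they were POGLUT2 (r = 0.99), NTN5, KIZ, P4HA2 and TMEM230 (0.97), and 0.811% of the genes compared had an r over 0.9. For CYP1A2 they were UQCRFS1 (0.99), CCDC198, CUL1, TMEM38A and AGA (0.96), with 0.582% over 0.9. UQCRFS1 encodes an iron-sulfur subunit of respiratory complex III. For AHR they were ABCB6 (0.98), ZRANB2, C9, STXBP6 and TOPBP1 (0.97), with 1.12% over 0.9. C9, a terminal complement protein made in the liver, had 308, 158 and 116 FPKM in High-Low 1 to 3, and 61.02, 217 and 106 FPKM in 2xTrp 1 to 3.

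ARNT resembled more genes than any other member, with 2.79% of those compared over 0.9, led by DDX24 (0.99), ANKRA2, MAP3K20, ADIPOR1 and NOTCH2 (0.99). TIPARP was led by GPLD1 (0.98), RAB9A, TMEM120B, UBR7 and MFN2 (0.97), with 1.16% over 0.9. NQO1 had the fewest, 0.245%, led by N4BP1 (0.98), POLR2F, HGD, CPN2 and JUP (0.95). With 6 libraries many genes reach so high an r.

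Other genes known as AHR targets gave no call. Of 18 on that list 7 were in the tables by name, 4 passed the filter and 0 were called in either direction, with 3 positive and 1 negative. Their median log2 difference was 0.15, against -0.004 over all genes tested. AHRR and CYP1B1, the receptor's repressor and the third CYP1 enzyme, were not analysed here. GSTA4, a glutathione transferase, had 68.8, 56.2 and 46.8 FPKM in High-Low 1 to 3 and 52.1, 101 and 42.9 FPKM in 2xTrp 1 to 3, so its peak was in 2xTrp 2. NFE2L2, which controls the oxidative stress response, had 13.2, 2.07 and 5.6 FPKM in High-Low 1 to 3 and 1.79, 6.33 and 8.59 FPKM in 2xTrp 1 to 3.

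FGF21, a hormone of fasting, averaged 27.9 ± 15.6 FPKM in High-Low and 18.1 ± 10.7 FPKM in 2xTrp, and PDK4, which shuts down pyruvate oxidation, 6.58 ± 4.93 and 4.94 ± 2.18 FPKM (SD, n = 3 each). FGF21 was highest in High-Low 3 (45.8 FPKM) and lowest in 2xTrp 2 (7.7 FPKM). Over the 6 libraries, r with CYP1A1 was 0.68 for GSTA4, 0.18 for NFE2L2, -0.06 for PDK4 and -0.55 for FGF21, as a description without a test. ALDH3A1, an aldehyde dehydrogenase that dioxin induces in rodent liver, was at most 0.184 FPKM in High-Low and 0.0437 FPKM in 2xTrp. LPCAT2 and SERPINB2 reached at most 0.233 FPKM in any library.

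The next list held chaperones and coregulators of the receptor. Of 22 on that list 16 were in the tables and 13 were tested, with 0 called in either direction, 10 positive, 3 negative and a median log2 difference of 0.22. HSP90AB1, which holds the unliganded receptor, had 218 ± 19.4 FPKM in High-Low and 183 ± 31.2 FPKM in 2xTrp (SD, n = 3 each). The coactivators NCOA1 and NCOA2 had 3.37 ± 0.349 and 2.29 ± 1.5 FPKM in High-Low, against 2.78 ± 0.531 and 1.17 ± 0.366 FPKM in 2xTrp. SRC, a kinase found with the cytosolic receptor complex, had 5.65, 7.13 and 9.28 FPKM in High-Low 1 to 3 and 5.61, 4.95 and 4.68 FPKM in 2xTrp 1 to 3. It was the 1 gene of the list whose groups did not overlap in either direction. Over all genes tested the groups did not overlap for 7.18%, and 3.06% lay higher in High-Low in this way. The log2 difference of SRC, 0.44, did not pass (limma, adjusted p = 0.998).

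Among other partners of ARNT, 8 of 8 were in the tables and 3 were tested, with 0 called. EPAS1, which encodes the hypoxia factor HIF-2 alpha, had 26.9 ± 1.25 FPKM in High-Low and 30.4 ± 4.59 FPKM in 2xTrp (SD, n = 3 each). HIF1A had 2.48, 0.951 and 1.59 FPKM in High-Low 1 to 3 and 0.888, 1.21 and 1.67 FPKM in 2xTrp 1 to 3, with High-Low 1 highest. HIF3A had 6.57 ± 0.525 and 6.29 ± 1.62 FPKM. Per length, EPAS1 was thus the most abundant of these partners.

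A list of tryptophan enzymes held some that make AHR ligands and some, such as KYNU, that use up kynurenine. It gave 0 calls among 7 tested of 12 listed, with 5 positive, 2 negative and a median log2 difference of 0.03. DDC and KYAT1 had the smallest p-values of the list, with log2 differences of 0.58 and -0.51 (limma, adjusted p = 0.998 each). KYNU, which cleaves kynurenines, had 2.04, 0.731 and 0.67 FPKM in High-Low 1 to 3 and 0.252, 1.06 and 1.36 FPKM in 2xTrp 1 to 3. IDO2 had 20.3 ± 7.5 FPKM in High-Low and 18.03 ± 3.19 FPKM in 2xTrp (SD, n = 3 each).

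Other NFE2L2 target genes were listed because NQO1 is driven by NFE2L2 as well as by AHR. They had 0 calls among 12 tested of 20 listed, with 5 positive, 7 negative and a median log2 difference of -0.05. TALDO1, a pentose phosphate enzyme, had 314, 323 and 267 FPKM in High-Low 1 to 3 and 362, 379 and 352 FPKM in 2xTrp 1 to 3. All its High-Low values lay below the 2xTrp values, as they did for 4.12% of the genes tested, and its log2 difference was -0.28 (limma, adjusted p = 0.998). EPHX1, an epoxide hydrolase that acts on products of CYP1A1, had 432 ± 78.3 FPKM in High-Low and 343 ± 51.6 FPKM in 2xTrp. The exporter ABCC2 had 8.10 ± 4.45 and 5.22 ± 0.350 FPKM, and TKT 76.9 ± 15.5 and 94.5 ± 8.90 FPKM (SD, n = 3 each).

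Other P450 enzymes and xenobiotic receptors had 0 calls among 9 tested of 27 listed, with 8 positive, 1 negative and a median log2 difference of 0.30. PPARA had 4.11 ± 1.57 FPKM in High-Low and 2.26 ± 0.975 FPKM in 2xTrp, and the pregnane X receptor NR1I2 31.0 ± 8.04 and 24.7 ± 1.46 FPKM. CYB5R3, which passes electrons to cytochrome b5, had 64.0 ± 37.1 and 79.1 ± 19.6 FPKM (SD, n = 3 each).

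CYP1A2 belongs to the pericentral zone of adult liver, so genes of both zones were set beside it. Pericentral genes had 0 calls among 8 tested of 15 listed, with 5 positive, 3 negative and a median log2 difference of 0.21. ZNRF3, a Wnt-induced ubiquitin ligase, had 2.27, 2.74 and 2.04 FPKM in High-Low 1 to 3 and 1.27, 1.35 and 1.29 FPKM in 2xTrp 1 to 3. Its groups did not overlap, with a log2 difference of 0.54 (limma, unadjusted p = 0.0242, adjusted p = 0.998). Its relative RNF43 also lay higher in every High-Low library, at 1.36, 4.94 and 1.77 FPKM against 1.26, 1.05 and 1.23 FPKM in 2xTrp 1 to 3, with a log2 difference of 0.64 (limma, adjusted p = 0.998). Of all genes tested, 3.06% lay higher in High-Low without overlap, as these genes did. OAT, an ornithine-degrading enzyme, had 6.81, 6.05 and 7.32 FPKM in High-Low 1 to 3 and 27.4, 27.2 and 5.745 FPKM in 2xTrp 1 to 3. Its groups overlapped, since 2xTrp 3 lay below every High-Low library, and the log2 difference of -1.19 did not pass (limma, adjusted p = 0.998). Neither ZNRF3 nor RNF43 took the library order of CYP1A2. CYP2E1, on the same list, was like CYP1A2 highest in High-Low 1, then 2xTrp 2, and lowest in 2xTrp 1. Its order differed in that High-Low 2 (580 FPKM) lay below High-Low 3 (698 FPKM) and 2xTrp 3 (621 FPKM). The part of liver zones in the values of CYP1A2 was not tested.

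Periportal genes had 0 calls among 10 tested of 14 listed, with 6 positive, 4 negative and a median log2 difference of 0.03. HAL had 46.2 ± 25.4 FPKM in High-Low and 78.7 ± 22.0 FPKM in 2xTrp, and CDH1 46.4 ± 18.1 and 27.9 ± 11.3 FPKM. The urea cycle enzymes ARG1 and ASL had 109 ± 14.5 and 149 ± 60.2 FPKM in High-Low, against 129 ± 12.3 and 192 ± 32.5 FPKM in 2xTrp (SD, n = 3 each).

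Markers of some other liver cells ran opposite to AHR and CYP1A2. The mean log2 value of stellate cell markers, relative to all libraries, was -0.40, -0.05 and 0.24 in High-Low 1 to 3 and 0.29, -0.36 and 0.28 in 2xTrp 1 to 3. From lowest to highest this is the order in which AHR and CYP1A2 ran from highest to lowest. Endothelial markers stood at -0.43, -0.16 and -0.03 in High-Low 1 to 3 and 0.40, -0.08 and 0.31 in 2xTrp 1 to 3, the same reversed order except that High-Low 2 and 2xTrp 2 change places. The part of these cells in the values of AHR and the CYP1A genes was not tested. Erythroid markers (6 of 8 in the tables) summed to 1817 to 7199 FPKM in High-Low and 6170 to 15893 FPKM in 2xTrp. Endothelial markers (9 of 12) summed to 112 to 157 FPKM in High-Low and 154 to 222 FPKM in 2xTrp. Macrophage markers (6 of 10) summed to 248 to 445 FPKM in High-Low and 414 to 574 FPKM in 2xTrp, and lymphocyte markers (6 of 8) to 8.11 to 11.01 and 12.6 to 18.7 FPKM. Neutrophil markers (6 of 8) summed to 30.4 to 98.5 FPKM in High-Low and 24.7 to 35.3 FPKM in 2xTrp. The sums were 60.2 to 102 and 62.4 to 111 FPKM for stellate cells (6 of 9), and 16.0 to 19.1 and 18.9 to 23.4 FPKM for bile duct cells (4 of 6). No marker of these 7 lists was at 0 in every library. High-Low 1, the highest library for CYP1A2 and AHR, also had the lowest mean log2 value of macrophage (-0.47), lymphocyte (-0.31) and erythroid (-1.18) markers.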

How the data were processed

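Newborn piglet liver RNA was sequenced after library preparation with an Illumina TruSeq kit, per the labels' protocols. The submitters' processing notes name the susScr3 pig assembly together with HTSeq 0.6.1, TopHat2 2.0.12 and Bowtie2 2.2.3. The sources used here do not give the quantification step, the annotation or the strand setting. The authors deposited 1 table per library without a unit, and its values, scaled by the authors before deposit, were taken to be FPKM, since they hold decimals and add up to unequal totals. An exact 0 can be a failed estimate in FPKM.

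A gene was tested where 3 or more libraries reached 1 FPKM. The test was limma 3.58.1 (R 4.3.3) on log2(FPKM + 1), with trended, robust variance and Benjamini-Hochberg adjustment. That scale understates changes of low genes. Correlations were tested by exact permutation in Python 3.11.15 (numpy 2.4.6). Whether limma could detect differences of the size seen in the members, at their levels, was not tested. Ensembl identifiers were matched to symbols, and list genes without a match were not analysed here. Named genes are the members, the 4 of smallest p per list, detected genes of the list of other AHR targets, the 5 most similar per member and the neighbours of the CYP1A genes. Members and lists were chosen with earlier results of these data known. Count models were not used, because the values were taken to be FPKM. Some genes of the lists that met this rule are not reported here. No sequences are given here.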

Additional observations from a re-analysis of the deposited data

How the results depend on the processing

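Of 98 recomputed member differences 83 were tested, and 0 of these were called; the smallest adjusted p was 0.281 (limma, ARNT with array quality weights). The other 15 are AHR differences below the filter, and AHR was tested in 2 alternatives with a looser filter. Leaving out single libraries gave log2 differences of 0.50 to 1.56 for CYP1A1, 0.23 to 1.41 for CYP1A2, 0.06 to 0.38 for AHR, 0.14 to 0.80 for ARNT, 0.11 to 0.55 for TIPARP and -0.28 to 0.12 for NQO1. With a pseudocount of 0.1 the AHR difference was 0.51. Array quality weights gave 0.20 for CYP1A1 and 0.21 for CYP1A2. Genes called higher over the whole table numbered 1 to 2 without single libraries, and genes called lower 0. Those called lower became 1 with scaling to the FPKM total, with or without its 20 most abundant genes, with quantile normalization, with array quality weights and at an adjusted p under 0.1. Relative to hepatocyte markers, an alternative chosen after seeing the data, 3 genes were higher and 4 lower. The cause was not tested. With a filter of 5 FPKM, CYP1A1, CYP1A2, TIPARP and NQO1 were not tested.

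By Spearman's rho the 1 pair called became 0 with scaling to the FPKM total (rho 0.94, adjusted p = 0.25 in the exact permutation test), quantile normalization (0.89, adjusted p = 0.438) and relative to hepatocyte markers (0.60, adjusted p = 0.572). Without single libraries rho stayed at 1 and 0 pairs passed. With 5 libraries, 1 pair alone at the smallest possible p cannot reach the threshold over 15 pairs (adjusted p = 0.25, exact permutation). By Pearson's r 0 pairs passed throughout.

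Several weak correlations changed sign. For CYP1A1 with TIPARP r was -0.017 with a pseudocount of 0.1, -0.11 with scaling to the FPKM total, -0.022 with quantile normalization and -0.50 relative to hepatocyte markers. Relative to these markers r was -0.0017 for CYP1A2 with ARNT, -0.37 for CYP1A2 with NQO1 and -0.13 for AHR with TIPARP. Quantile normalization gave -0.20 for AHR with ARNT and -0.074 for AHR with TIPARP. Without single libraries r ranged from -0.70 to 0.051 for CYP1A1 with ARNT, -0.75 to 0.31 for CYP1A1 with TIPARP, -0.27 to 0.50 for CYP1A1 with NQO1, -0.67 to 0.50 for CYP1A2 with ARNT, -0.85 to 0.79 for CYP1A2 with TIPARP, -0.16 to 0.83 for CYP1A2 with NQO1, -0.41 to 0.38 for AHR with ARNT, -0.77 to 0.64 for AHR with TIPARP, -0.28 to 0.44 for AHR with NQO1, -0.020 to 0.63 for ARNT with NQO1 and -0.11 to 0.67 for TIPARP with NQO1.

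Same-numbered libraries did not deviate together (r of -0.22, -0.01 and 0.03 for replicates 1 to 3). So few values cannot decide whether the numbers pair the samples, and the labels do not say. With the replicate block 1 gene was higher and 0 lower, as without it, and the log2 differences of the members kept their values, 0.91 for CYP1A1. Depth is unknown, which limits what can be said of AHR at under 1 FPKM in 5 libraries.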
